A study of Homo sapiens with 18 samples.

Results

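The 10 genes described here are markers used to recognise stem-like tumour cells in pancreatic ductal adenocarcinoma (PDAC): the surface proteins CD24, CD44, PROM1, ALCAM, CXCR4 and MET, the kinase DCLK1, and the transcription factors KLF4, NANOG and POU5F1. They were taken by gene symbol from a table of 40266 symbols, and all 10 were found. Of these, 7 reached 1 TPM (transcript abundance corrected for length and scaled to the library) in at least 3 of the 18 libraries and were tested among 16093 genes, while PROM1, NANOG and POU5F1 did not.

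RNA was sequenced from 2 human PDAC lines, untreated in culture. Panc1 came from a primary tumour and served as the mesenchymal-like line, and Panc89 came from a lymph node metastasis and served as the epithelial line. Each line was studied as parental cells, as Holoclone cells (the colony type taken as cancer stem cells, CSCs) and as Paraclone cells (taken as non-CSCs), with 3 replicates in each of the 6 groups. The Holoclone and Paraclone cells of a line each grew from a single cell and the replicates are passages of the same culture, so the p-values measure the spread between passages, and a clone cannot be told apart from its colony type.

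Cancer stem cells are usually enriched by surface proteins rather than by a single defining gene. CD44 binds hyaluronan, CD24 is a small mucin-like adhesion protein, PROM1 (CD133) is a pentaspan membrane glycoprotein and ALCAM (CD166) is an adhesion protein of the immunoglobulin superfamily. CXCR4 and MET are receptors for CXCL12 and HGF and are linked to migration and spread, DCLK1 marks tuft-like cells of the gut and pancreas, and KLF4, NANOG and POU5F1 (OCT4) belong to the transcription factors that maintain or restore pluripotency.

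The 250 bases before an annotated start are shown for the 4 members whose levels varied most between groups within a line. The sequences are from RefSeq on GRCh38.p14, 5′ to 3′ on the strand of the gene, in a table that matched 9 of the 10 members. Capitals mark GGGCGG and TATAAA or their reverse complements CCGCCC and TTTATA, and overlapping matches run together. CACCTG or its reverse complement CAGGTG was also searched on both strands and had no match in these 4 windows.
CD24, chr6:106975628-106975877, minus strand: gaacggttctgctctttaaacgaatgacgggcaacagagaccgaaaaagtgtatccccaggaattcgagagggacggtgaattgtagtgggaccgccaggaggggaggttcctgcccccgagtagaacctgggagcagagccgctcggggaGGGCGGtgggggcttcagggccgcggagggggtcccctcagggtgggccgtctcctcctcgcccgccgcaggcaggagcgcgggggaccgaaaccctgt
CXCR4, chr2:136118150-136118399, minus strand: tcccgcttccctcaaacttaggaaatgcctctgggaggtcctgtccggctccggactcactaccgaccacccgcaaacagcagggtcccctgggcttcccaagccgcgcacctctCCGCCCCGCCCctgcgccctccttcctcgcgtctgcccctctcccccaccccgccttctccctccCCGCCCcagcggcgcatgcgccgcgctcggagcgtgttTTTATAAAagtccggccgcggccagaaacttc
DCLK1, chr13:36131383-36131632, minus strand: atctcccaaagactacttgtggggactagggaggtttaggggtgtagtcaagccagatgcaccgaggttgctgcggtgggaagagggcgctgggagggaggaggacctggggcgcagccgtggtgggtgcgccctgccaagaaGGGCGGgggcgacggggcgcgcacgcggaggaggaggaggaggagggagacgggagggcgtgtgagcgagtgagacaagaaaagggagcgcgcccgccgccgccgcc
KLF4, chr9:107489770-107490019, minus strand: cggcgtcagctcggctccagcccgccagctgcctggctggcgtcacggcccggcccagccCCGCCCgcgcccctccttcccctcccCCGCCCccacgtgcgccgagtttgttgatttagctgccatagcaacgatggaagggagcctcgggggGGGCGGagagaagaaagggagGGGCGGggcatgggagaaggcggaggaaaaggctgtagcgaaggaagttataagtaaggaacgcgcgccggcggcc

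None of the 4 windows overlapped an exon in GENCODE 44. The CD24 and DCLK1 windows lie directly before the annotated genes (6:106969831-106975627 and 13:35768652-36131382), and those of CXCR4 and KLF4 lie inside the annotated spans (2:136114349-136119177 and 9:107484852-107490482). All 4 held more CpG than the median of 11 over 35116 promoters. The counts were 20 in CD24, 24 in CXCR4, 22 in DCLK1 and 25 in KLF4. Only 1 start per gene is shown, and windows of other listed starts differed. Those held 27 and 17 CpG in CD24, 12 and 8 in CXCR4, and 2 and 5 in DCLK1. The CD24 window with 17 CpG held a CAGGTG match. In the windows shown, GGGCGG or its reverse complement stood once in CD24 and DCLK1, 3 times in CXCR4 and 4 times in KLF4. It occurred in 42.6% of all promoters. The TATAAA letters were found in the CXCR4 window alone among the 4, and in 10.7% of all promoters. These matches describe letters in the windows and were not tied to the levels below.

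**Figure D1:**
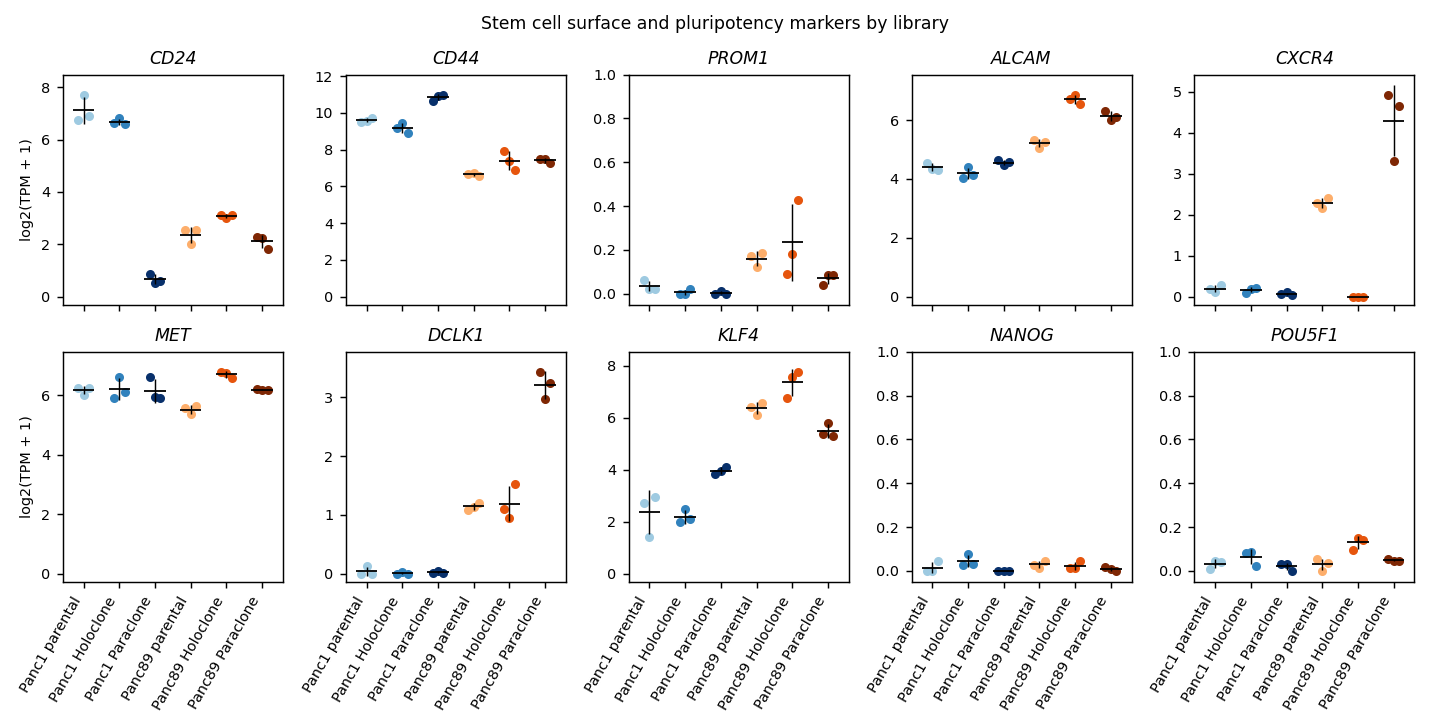
Level of each of the 10 genes in every library, as log2(TPM + 1) on the y axis, by group on the x axis; points are libraries, horizontal bars are means and vertical bars are 1 SD of 3 replicates. CD24 is high in parental and Holoclone Panc1 cells and near the floor in Panc1 Paraclone cells, CXCR4 and DCLK1 are highest in Panc89 Paraclone cells, and PROM1, NANOG and POU5F1 stay under 1 on this scale.

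CD24 separated the Panc1 cell variants more than any other member. Its level was 106.4, 210 and 119 TPM in the 3 parental Panc1 libraries, 99.7, 112 and 95.8 TPM in Panc1 Holoclone cells, and 0.830, 0.443 and 0.497 TPM in Panc1 Paraclone cells. Parental and Holoclone libraries overlapped, whereas every Paraclone library lay below 1 TPM. On the log2(TPM + 1) scale, CD24 was higher in Holoclone than in Paraclone cells by 6.03 (SE 0.221, adjusted p = 2.02e-11 in limma), a 174-fold ratio of mean TPM, and lower in Paraclone than in parental cells by 246-fold (adjusted p = 1.13e-11). Holoclone and parental cells differed by −0.44 (SE 0.221, adjusted p = 0.255). In rank, CD24 exceeded 92.9% of the tested genes in parental Panc1 cells and 15.1% in Panc1 Paraclone cells.

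In Panc89 the CD24 levels were lower and closer together. They were 4.85, 3.03 and 4.84 TPM in parental, 7.72, 7.01 and 7.80 TPM in Holoclone and 3.89, 3.68 and 2.57 TPM in Paraclone cells. The 3 Holoclone libraries lay above all others, and parental and Paraclone libraries overlapped. CD24 was higher in Holoclone than in Paraclone cells by 0.97 (SE 0.221, adjusted p = 0.00285) and higher in Holoclone than in parental cells by 0.72 (adjusted p = 0.0261), and the latter call was lost, with adjusted p from 0.0505 to 0.125, without parental replicate 2 or any 1 Holoclone replicate. Between parental lines, CD24 was 34.3-fold lower in Panc89 (−4.76, adjusted p = 3.23e-11). The order of the lines turned between clones, since CD24 was lower in Panc89 than in Panc1 Holoclone cells (−3.60, adjusted p = 8.78e-10) and higher in Panc89 than in Panc1 Paraclone cells (1.46, adjusted p = 3.20e-05, or 2.35 with 0.1 TPM added in place of 1).

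CD44, the hyaluronan receptor, was the most abundant member and moved the other way in Panc1. Its level was 734, 744 and 835 TPM in parental, 571, 701 and 479 TPM in Holoclone and 1620, 1948 and 2025 TPM in Paraclone Panc1 cells. No libraries of these 3 groups overlapped. CD44 was lower in Holoclone than in Paraclone cells by 3.19-fold (−1.68, SE 0.196, adjusted p = 7.94e-06) and higher in Paraclone than in parental cells (1.27, adjusted p = 0.000205). The difference of Holoclone from parental cells did not pass the test (−0.42, SE 0.196, adjusted p = 0.216).

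In Panc89 CD44 was 101, 104 and 94.4 TPM in parental, 240, 165 and 118 TPM in Holoclone and 176, 179 and 153 TPM in Paraclone cells. The Holoclone libraries spanned those of the Paraclone cells, and both clones lay above the parental cells. Against parental cells CD44 was higher in Holoclone (0.74, adjusted p = 0.0112) and in Paraclone cells (0.76, adjusted p = 0.0125). The first call was lost when only the compared groups were fitted (adjusted p = 0.0954), and the second without parental replicate 3 (adjusted p = 0.0509). Holoclone and Paraclone cells differed by −0.01 (SE 0.196, adjusted p = 0.980), a value whose sign depended on single libraries. Panc89 cells had less CD44 than Panc1 cells in each variant, 7.74-fold in parental, 3.35-fold in Holoclone and 11-fold in Paraclone cells (adjusted p = 2.53e-09, 9.09e-07 and 3.69e-10).

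Since CD44 and CD24 are often read together, their ratio was taken within each library as a description. CD44 exceeded CD24 in TPM in every library. The ratio was 3.54 to 6.99 in parental and 5.0 to 6.25 in Holoclone Panc1 cells, and 1953 to 4398 in Panc1 Paraclone cells. In the last group CD24 was at most 0.830 TPM, so the ratio rests on a level near the floor. In Panc89 it was 19.5 to 34.2 in parental, 15.2 to 31.1 in Holoclone and 45.3 to 59.4 in Paraclone cells. EPCAM, an epithelial adhesion protein used with this pair to sort stem-like pancreatic tumour cells, was 27.2 to 31.5 TPM in Panc1 Holoclone and 1.28 to 2.30 TPM in Panc1 Paraclone cells (3.48, adjusted p = 1.1e-10), and was lower in Holoclone than Paraclone cells of Panc89 (−0.65, adjusted p = 0.00317).

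**Figure D2:**
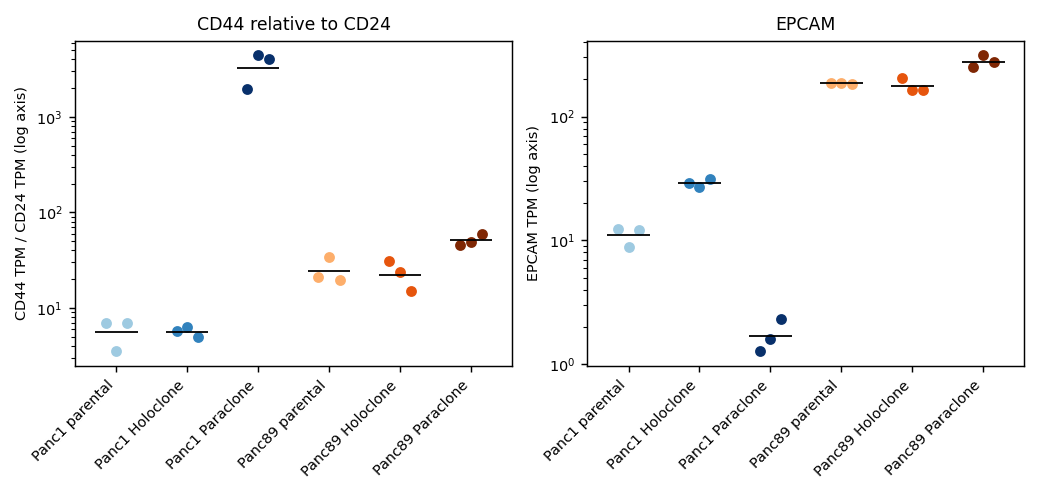
Left, CD44 TPM divided by CD24 TPM in each library, and right, EPCAM TPM, both on log axes, by group; points are libraries and bars are geometric means of 3 replicates. The Panc1 Paraclone libraries stand apart, with ratios from 1953 to 4398 and EPCAM at most 2.30 TPM. Their CD24 level was at most 0.830 TPM, so these ratios rest on a level near the floor.

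ALCAM, the immunoglobulin adhesion protein, was higher in Panc89 than in Panc1 in each variant. It was 22.5, 19.5 and 18.9 TPM in parental, 15.5, 20.1 and 16.4 TPM in Holoclone and 24.0, 21.0 and 22.8 TPM in Paraclone Panc1 cells. In Panc89 it was 38.7, 32.2 and 37.6 TPM in parental, 104, 116 and 93.0 TPM in Holoclone and 78.9, 62.6 and 67.6 TPM in Paraclone cells. All Panc89 libraries lay above all Panc1 libraries, and the 3 Panc89 groups did not overlap. ALCAM was higher in Panc89 than in Panc1 parental (0.80, adjusted p = 4.52e-05), Holoclone (2.52, a 6.01-fold ratio, adjusted p = 8.60e-11) and Paraclone cells (1.58, adjusted p = 2.87e-08). In Panc89 it was higher in Holoclone than in Paraclone cells (0.58, SE 0.128, adjusted p = 0.00238), and both clones exceeded parental cells, by 1.5 (adjusted p = 5.90e-07) and 0.93 (adjusted p = 0.000106). In Panc1 it was lower in Holoclone than in Paraclone cells by 0.37 on the log2 scale (−0.37, SE 0.128, adjusted p = 0.0324), a call lost on leaving out 4 of the 6 libraries in turn (adjusted p from 0.0767 to 0.128).

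CXCR4, the chemokine receptor, was a gene of parental and Paraclone Panc89 cells. It was 3.86, 3.46 and 4.31 TPM in parental and 29.4, 8.91 and 24.2 TPM in Paraclone Panc89 cells, and was listed at 0 in all 3 Panc89 Holoclone libraries. In the 9 Panc1 libraries it stayed between 0.0202 and 0.218 TPM. Only those 6 Panc89 libraries reached 1 TPM, so CXCR4 entered the test through the groups in which it was high. Paraclone cells exceeded parental cells of Panc89 by 2.01 (SE 0.278, adjusted p = 0.000105), a 5.38-fold ratio, and Holoclone cells were lower than Paraclone cells (adjusted p = 1.43e-08) and parental cells (adjusted p = 2.06e-05). Fewer cells with the transcript and less transcript per cell cannot be told apart in bulk RNA.

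The CXCR4 difference between the lines followed the variant. Panc89 exceeded Panc1 in parental cells by 2.09 (adjusted p = 6.83e-06) and in Paraclone cells by 4.23 (adjusted p = 2.11e-09), whereas Holoclone cells did not pass the test (adjusted p = 0.627). With 0.1 TPM added in place of 1, the CXCR4 differences were 4.08 in parental and 7.02 in Paraclone cells, and Holoclone cells of Panc89 passed the test as lower (−1.11, adjusted p = 0.0182). That call sets 0 TPM against 0.0690 to 0.162 TPM in Panc1 Holoclone cells, levels whose precision is unknown. Within Panc1 the adjusted p of CXCR4 was 0.841 for Holoclone against Paraclone cells. Its ligand CXCL12 reached at most 0.503 TPM and the second CXCL12 receptor ACKR3 at most 0.251 TPM in any library. Of 5 immune markers, 1 reached a mean of 1 TPM in parental and Paraclone Panc89 cells, and the summed level was 4.73 to 5.96 TPM in parental, 2.55 to 5.21 TPM in Paraclone and 0.616 to 0.771 TPM in Holoclone Panc89 cells. That marker was CD14, the T cell gene CD3E was 0 in parental and Paraclone cells, and the pan-leukocyte gene PTPRC stayed at or under 0.956 TPM. Of 5 endothelial markers, 2 reached a mean of 1 TPM in parental, 3 in Paraclone and 0 in Holoclone Panc89 cells, and the sum was 55.7 to 69.4 TPM in parental, 5.39 to 10.9 TPM in Paraclone and 1.43 to 2.38 TPM in Holoclone Panc89 cells. PECAM1 had means of 60.1, 4.54 and 0.856 TPM in these 3 groups and CDH5 of 3.78, 1.59 and 0.392 TPM. CLDN5 had 0.330, 2.19 and 0.318 TPM, and VWF and TEK stayed at or under 0.355 TPM. How these marker levels relate to the CXCR4 levels was not tested.

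MET, the HGF receptor, was among the most even members. It was 74.0, 63.6 and 74.7 TPM in parental, 58.2, 95.9 and 68.1 TPM in Holoclone and 97.0, 60.1 and 58.6 TPM in Paraclone Panc1 cells, all 3 groups overlapping. In Panc89 it was 45.8, 39.9 and 48.5 TPM in parental, 109, 107 and 93.8 TPM in Holoclone and 72.2, 70.4 and 71.2 TPM in Paraclone cells, with no overlap. Within Panc1 no comparison passed the test (adjusted p = 0.884, 0.973 and 0.989). In Panc89, MET was higher than in parental cells in Holoclone (1.19, adjusted p = 0.000222) and in Paraclone cells (0.66, adjusted p = 0.0195), and higher in Holoclone than in Paraclone cells (0.52, SE 0.186, adjusted p = 0.0387). The last 2 calls were lost on leaving out 4 and 5 of the 6 libraries in turn. Adjusted p then ran from 0.0512 to 0.0727 and from 0.0670 to 0.10. Both calls also fell short of an absolute change over 1, and the last was lost in 4 further settings.

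Between lines MET was lower in Panc89 than in Panc1 parental cells (−0.65, adjusted p = 0.00602), which median-of-ratios scaling moved to an adjusted p of 0.0662. It was higher in Panc89 than in Panc1 Holoclone cells (0.50, adjusted p = 0.0274), a call lost on leaving out 4 of 6 libraries (adjusted p from 0.0707 to 0.141), and did not pass the test between Paraclone cells (adjusted p = 0.917). Its ligand HGF was 27.7 to 36.4 TPM in Panc1 Paraclone cells against 0.0456 to 0.300 TPM in Panc1 Holoclone cells (−4.92, SE 0.127, adjusted p = 1.01e-12), and reached at most 0.0204 TPM in Panc89. HGF was near the floor in Panc1 Holoclone cells, so the size of that difference depends on the 1 TPM added.

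DCLK1, the doublecortin-like kinase, was detected at 1 TPM or more in 8 libraries, all of Panc89, and so entered the test through that line. It was 1.12, 1.20 and 1.31 TPM in parental, 1.14, 0.934 and 1.87 TPM in Holoclone and 9.79, 6.81 and 8.44 TPM in Paraclone Panc89 cells, and at most 0.0952 TPM in Panc1. Parental and Holoclone libraries overlapped and Paraclone libraries lay above both. DCLK1 was lower in Holoclone than in Paraclone cells of Panc89 by 6.35-fold (−2.02, SE 0.149, adjusted p = 5.97e-08) and higher in Paraclone than in parental cells by 6.90-fold (2.07, adjusted p = 1.59e-07), while Holoclone and parental cells did not pass the test (adjusted p = 0.882). Panc89 exceeded Panc1 in parental (1.1), Holoclone (1.18) and Paraclone cells (3.18), with adjusted p = 8.33e-06, 3.84e-06 and 3.39e-11. These differences depend on the constant added to levels near 0 in Panc1, and with 0.1 TPM added they were 3.39, 3.69 and 6.14 for DCLK1. Its relative DCLK2 was found in the other line, at 4.81 to 11.2 TPM in Panc1 and at most 0.0418 TPM in Panc89, and DCLK3 was at 0 in every library.

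KLF4, a zinc finger factor of epithelial differentiation and reprogramming, changed in opposite directions in the 2 lines. It was 5.67, 1.65 and 6.73 TPM in parental, 2.94, 4.54 and 3.29 TPM in Holoclone and 13.2, 14.3 and 16.1 TPM in Paraclone Panc1 cells. In Panc89 it was 83.3, 68.0 and 93.6 TPM in parental, 107, 187 and 216 TPM in Holoclone and 40.7, 54.6 and 38.0 TPM in Paraclone cells. Holoclone and Paraclone libraries did not overlap in either line. KLF4 was lower in Holoclone than in Paraclone cells of Panc1 by 4.05-fold (−1.77, SE 0.331, adjusted p = 0.000601) and higher in Holoclone than in Paraclone cells of Panc89 by 3.82-fold (1.87, SE 0.331, adjusted p = 0.000415). The difference of the 2 changes was 3.64 (SE 0.469, adjusted p = 2.45e-05).

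Against parental cells, KLF4 was higher in Panc1 Paraclone cells (1.59, adjusted p = 0.00222), with an adjusted p of 0.0516 when only the compared groups were fitted. It was higher in Panc89 Holoclone cells (1.00, adjusted p = 0.0382). That call was lost in all 7 other settings, with 0.998 falling short of an absolute change over 1. Leaving out 5 of 6 libraries in turn also lost the call (adjusted p from 0.0577 to 0.150). In Panc89 Paraclone cells KLF4 differed by −0.87 (SE 0.331, adjusted p = 0.0813). Panc89 exceeded Panc1 by 17.4-fold in parental (3.99, adjusted p = 3.36e-08), 47.3-fold in Holoclone (5.17, adjusted p = 1.49e-09) and 3.05-fold in Paraclone cells (1.53, adjusted p = 0.000850).

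The pluripotency factors NANOG and POU5F1 and the surface protein PROM1 were not measured above trace levels. NANOG reached at most 0.0547 TPM and was at 0 in 6 libraries, POU5F1 at most 0.110 TPM with 2 libraries at 0, and PROM1 at most 0.345 TPM with 4 libraries at 0. The highest PROM1 and POU5F1 values were in Panc89 Holoclone cells, and no test was made at these levels. The related PROM2 had group means of 17.6 to 36.7 TPM in Panc89. Near-identical copies can share reads with these genes: POU5F1B was 1.24, 1.27 and 1.78 TPM in parental, 0.701 to 0.806 TPM in Holoclone and 0.708 to 1.04 TPM in Paraclone Panc89 cells, and at most 0.160 TPM in Panc1. NANOGP8 reached 0.124 TPM, while CD24P1, CD24P2 and KLF4P1 were at 0 throughout. The CD24 copy CD24P4 was 0.654 TPM in parental and 0.386 TPM in Holoclone replicate 2 of Panc89, and at 0 in 16 libraries. These 2 libraries had the lowest CD24 level of their groups, and whether reads were shared was not tested.

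Counted together, 4 of the 7 tested members differed between Holoclone and Paraclone cells in Panc1, where 37.3% of all tested genes did. Of these, 1 was higher and 3 lower in Holoclone cells, against 27.4% and 9.97% of all genes. In Panc89 6 members differed (35.7% of all genes), 4 higher and 2 lower (22.4% and 13.3%). CXCR4, 1 of the 2 lower, entered the test through parental and Paraclone cells. The median difference of the 7 was −0.02 in Panc1 against 0.19 over all genes, and 0.52 in Panc89 against 0.09.

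Between parental lines all 7 differed (66% of all genes), 4 higher and 3 lower in Panc89 (27.5% and 38.5%). Between Holoclone cells 6 differed (65.8%), 4 higher and 2 lower (29.3% and 36.4%), and between Paraclone cells 6 (60.7%), 5 higher and 1 lower (30.2% and 30.4%). CXCR4 and DCLK1 entered the test through Panc89 and could hardly be called lower in that line. Both are among the higher between parental and between Paraclone cells, and DCLK1 also between Holoclone cells.

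Against parental cells of the same line, with shared controls, 3 members differed in Panc1 Paraclone cells (28.6%), 2 higher and 1 lower (7.31% and 21.3%). In Panc89, 6 differed in Holoclone cells (24.7%), 5 higher and 1 lower (16.1% and 8.61%), and 5 in Paraclone cells (19.4%), all higher (9.37% higher and 10% lower). The 1 lower was CXCR4, which entered the test through parental and Paraclone cells. For Panc1 Holoclone cells limma called 0 of the 7 (10.9%, with 5.87% higher and 5.06% lower), and 0 had an unadjusted p under 0.05. The Holoclone against Paraclone change itself differed between the lines for 6 members (35.1%), 3 higher and 3 lower in Panc89 (14.8% and 20.4%). The exception was MET (0.47, SE 0.263, adjusted p = 0.184). CXCR4 and DCLK1, near the floor in Panc1, are among the 3 lower.

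**Figure D3:**
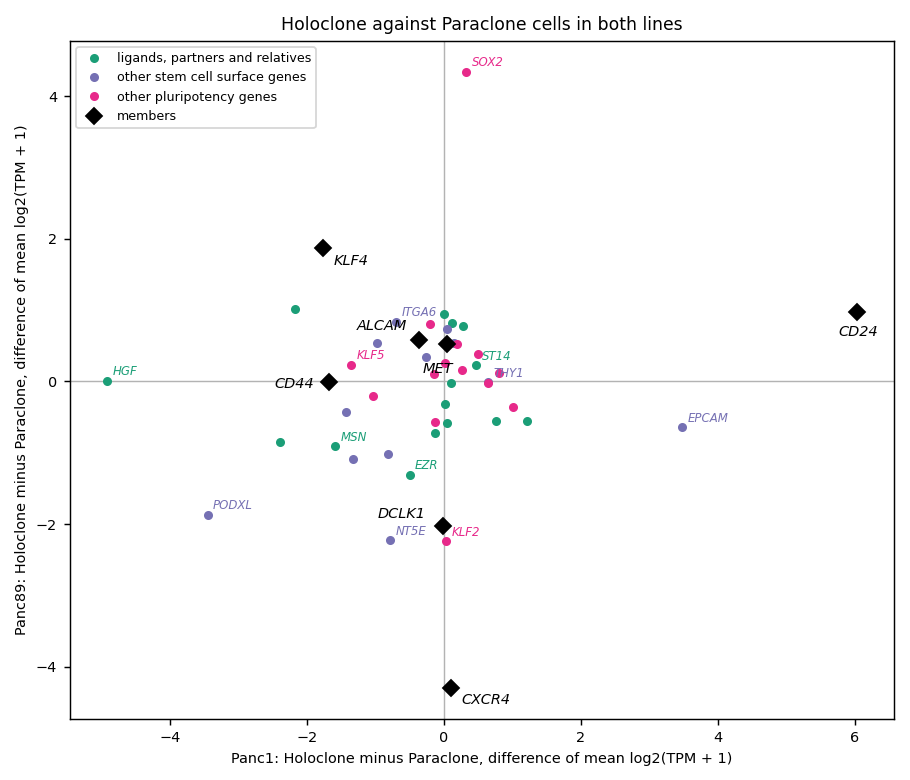
Holoclone minus Paraclone difference of mean log2(TPM + 1) in Panc1 (x axis) and Panc89 (y axis) for the 7 tested members (black diamonds) and the tested genes of 3 lists (coloured points). CD24 lies far to the right at 6.03, KLF4 in the upper left quadrant at −1.77 and 1.87, and DCLK1 and CXCR4 close to the vertical axis below 0, where CXCR4 was at 0 in Panc89 Holoclone cells.

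The 3 lists of other genes place the members among related genes, described by counts with no test of the list. Over all tested genes, 27.4% were higher and 9.97% lower in Holoclone than in Paraclone cells of Panc1 (median 0.19), 22.4% and 13.3% in Panc89 (median 0.09), and 27.5% and 38.5% in parental Panc89 against parental Panc1 cells (median −0.18). These shares and medians shift with scaling, as described in the last section. Of 22 ligands, partners and relatives 15 were tested: 2 were higher and 4 lower in Holoclone than in Paraclone cells of Panc1 and 1 higher and 5 lower in Panc89, with medians of 0.01 and −0.32. EZR, which links CD44 to actin, was lower in Panc89 Holoclone cells (−1.31, adjusted p = 0.000377). Between parental lines 8 were higher and 5 lower in Panc89, with a median of 0.47. ST14, a protease that activates HGF, was higher (6.5, adjusted p = 1.20e-13). Among listed genes averaging 10 TPM or more in the line where they were higher, and whose libraries did not overlap, MSN, another actin linker, had the lowest value (−1.68, adjusted p = 5.31e-06). DCLK2, below that level, was lower still (−3.09, adjusted p = 2.08e-09). It was near the floor in Panc89 and entered the test through Panc1, so it could hardly be called higher in Panc89. The size of its difference depends on the constant added.

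Of 15 other stem cell surface genes 12 were tested. In Panc1, 2 were higher and 7 lower in Holoclone than in Paraclone cells, with a median of −0.74, where EPCAM rose and the sialomucin PODXL fell most (−3.45, adjusted p = 1.68e-06). In Panc89, 3 were higher and 5 lower, with a median of −0.22, from the laminin receptor subunit ITGA6 (0.84, adjusted p = 0.000261) to NT5E (CD73, −2.22, adjusted p = 1.48e-07). Between parental lines 4 were higher and 4 lower in Panc89, with a median of −0.21. THY1 (CD90) had the lowest change among those named by the rule (−3.62, adjusted p = 1.24e-11). THY1 was at most 0.00847 TPM in parental Panc89 cells, so the size of this change depends on the constant added.

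Of 29 other pluripotency genes 14 were tested, and 3 were higher and 2 lower in Holoclone than in Paraclone cells of Panc1, with a median of 0.11. In Panc89, 2 were higher and 2 lower, with a median of 0.14, and between parental lines 7 were higher and 5 lower in Panc89, with a median of 0.56. SOX2 was 17.3 to 64.3 TPM in Panc89 Holoclone and 0.252 to 0.981 TPM in Panc89 Paraclone cells (4.35, adjusted p = 1.02e-07), and KLF2 was lower in Holoclone cells (−2.24, adjusted p = 9.69e-08), opposite to KLF4. KLF5, like KLF4, was higher in parental Panc89 than in parental Panc1 cells (5.57, adjusted p = 3.66e-12).

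The genes nearest in pattern were found by the root mean square difference of log2(TPM + 1) over 18 libraries, after centring each gene, for the 6 members whose group means spanned at least 2. CD24 was nearest to AFAP1L2 (0.69), HMX3 and PAX2, and CD44 to ADGRG6 (0.31), SLC9A7 and FRMD5. ALCAM was nearest to ST6GALNAC5 (0.25), MEAK7 and SH3GL3, CXCR4 to PICSAR (0.36), GAST and LEMD1, DCLK1 to TPTEP2-CSNK1E (0.28), LINC02178 and FEZF1-AS1, and KLF4 to CEBPD (0.51), ALPK1 and COL4A6. PAX2, for example, was 18.8 to 36.1 TPM in parental and Holoclone Panc1 cells and at most 0.0122 TPM in every other group. When group means replaced libraries, none of the 3 ALCAM neighbours stayed the same.

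**Figure D4:**
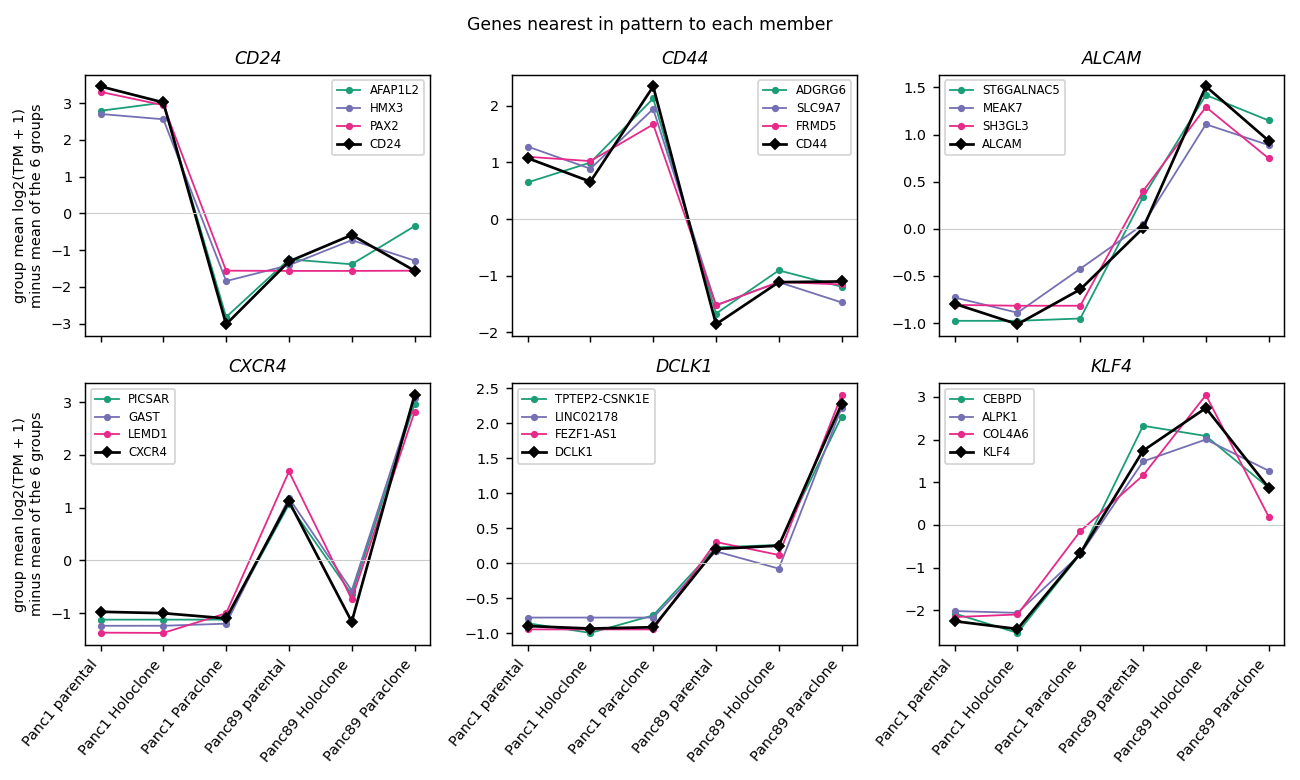
Group means of log2(TPM + 1), minus the mean of the 6 groups, for 6 members (black) and the 3 genes nearest to each in pattern (coloured), by group on the x axis. CD24 and AFAP1L2, HMX3 and PAX2 are high in parental and Holoclone Panc1 cells alone, and CXCR4 and PICSAR, GAST and LEMD1 peak in Panc89 Paraclone cells.

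The 20 tested genes closest on the chromosome were also read beside each member, and are given here for CD24, DCLK1, CXCR4, CD44 and KLF4. For CD24 they had a median difference of 0.51 between Holoclone and Paraclone Panc1 cells, against 0.19 over all genes and 6.03 for CD24. Between parental lines 15 of the 20 were lower in Panc89, where 38.5% of all tested genes were, with a median of −1.20 against −0.18 over all genes. Around DCLK1, 13 of 20 were higher in parental Panc89 cells, against 27.5% of all tested genes, with a median of 0.78 against −0.18. Around CXCR4 the median in Panc89 Holoclone against Paraclone cells was 0.21, close to the 0.09 of all genes. Around CD44 it was 0.62, with 12 of 20 higher against 22.4% of all tested genes, while CD44 itself differed by −0.01. Around KLF4 it was 0.37, with 8 of 20 higher and 1 lower, and in Panc1 the median was 0.04 against 0.19. For the difference of the 2 changes, 10 of the 20 around KLF4 were higher and 1 lower. All tested genes had 14.8% higher, and the medians were 0.51 and −0.11. How these relate to the members was not tested.

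The libraries themselves were described by a few measures. Their TPM summed to 985339 to 988066, 12932 to 14199 genes reached 1 TPM, mitochondrial transcripts took 5.62 to 9.44% and the mean correlation with the own group was 0.962 to 0.989. The lowest correlation was in Panc89 Paraclone replicate 2, where CXCR4 was 8.91 TPM against 29.4 and 24.2 TPM in replicates 1 and 3. At least 4 of 5 epithelial markers reached a mean of 1 TPM in each group, and of 5 fibroblast markers only COL1A1 did.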

How the data were processed

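Poly(A) RNA of 18 libraries was read as stranded mRNA-seq. The authors quantified transcripts with kallisto 0.46.1 against Ensembl GRCh38 and deposited a log2(TPM + 1) value per symbol and library. TPM was recovered by inverting this. TPM keeps no read total, so depth and counting error are unknown, and no interval or limit for a value of 0 is given. ACTB, GAPDH, RPLP0, TBP and PPIA were at 0 in no library.

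Groups were compared with limma 3.58.1 in R 4.3.3, with lmFit and eBayes with trend on log2(TPM + 1), 6 group means estimated from all 18 libraries together. Genes had to reach 1 TPM in 3 or more libraries, which left 16093 for two-sided tests, with Benjamini-Hochberg adjustment over all of them and a threshold of 0.05. Fold changes on this scale understate those of low genes. The tests were checked on simulated data. Differences are log2(TPM + 1) unless called fold, which is the ratio of mean TPM.

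Named genes are the members, their copies by symbol, from each list the gene with the highest and the lowest change (at least 10 TPM in the higher group, libraries not overlapping), and the 3 nearest in pattern. A gene that the rule names is not reported here. EPCAM in Panc89, PTPRC, CD3E, CD14, PECAM1, CDH5, CLDN5, TEK, VWF, CXCL12, ACKR3, DCLK2, DCLK3 and PROM2 were named after their values were seen. Members and lists were chosen with earlier results of these data known. Positions are from GENCODE 44. Alternatives were 0.1 TPM added, no filter, the compared groups alone, a replicate block, 2 scalings, an absolute change over 1, and leaving out each replicate.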

Additional observations from a re-analysis of the deposited data

Results flagged for a closer look

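For 6 members, the Holoclone against Paraclone change differed between Panc89 and Panc1 by the limma test of that difference. It was −5.06 for CD24 (adjusted p = 1.27e-08), 1.67 for CD44 (adjusted p = 0.000252), 0.95 for ALCAM (adjusted p = 0.000799), −2 for DCLK1 (adjusted p = 3.05e-06) and 3.64 for KLF4 (adjusted p = 2.45e-05), each as Panc89 minus Panc1 on the log2(TPM + 1) scale. For CXCR4, which was at 0 in Panc89 Holoclone cells, the adjusted p was 5.94e-07. CXCR4 and DCLK1 entered the test through Panc89 and were near the floor in Panc1, at most 0.218 and 0.0952 TPM. A change in Panc1 could hardly be seen for them, so their differences largely repeat the change in Panc89, −2.02 for DCLK1. ALCAM and KLF4 were lower in Holoclone than in Paraclone cells of Panc1 and higher in those of Panc89, while CD24 was higher in Holoclone cells of both lines.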

How the results depend on the processing

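Leaving aside the absolute change over 1, 10 of 58 values of a member in a comparison lost their call under some setting. Of the same 58, 3 gained a call and 1 reversed. With an absolute change over 1 also required, the members called fell to 3 for Panc89 Holoclone against Paraclone, 3 for Panc89 Holoclone against parental and 2 for Panc89 Paraclone against parental cells. Other comparisons lost members too. These were ALCAM in Panc1 Holoclone against Paraclone cells (−0.37), and ALCAM (0.80) and MET (−0.65) between parental lines. MET between Holoclone cells (0.50) and the ALCAM difference between the lines (0.95) were also lost. CD44 in Panc89 Holoclone against Paraclone cells ran from −0.27 to 0.24 on leaving out single replicates. It was 0.24 without Holoclone replicate 3, and 0.02 and 0.03 without Paraclone replicates 1 and 2. Calls gained were CXCR4 between Holoclone cells with 0.1 TPM added (adjusted p = 0.0182), KLF4 in Panc89 Paraclone against parental cells with the groups fitted alone (adjusted p = 0.0351) and the MET difference between the lines without Panc1 Holoclone replicate 2 (0.67, adjusted p = 0.0450). The causes were not tested.

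Over 18 pairs of libraries of 1 line with the same replicate number, deviations from the group means correlated from −0.318 to 0.190, and 2 of 18 libraries correlated best with their own number, so the numbers were not taken as pairs. With the replicate block, 3 members were called in Panc1 Holoclone against Paraclone cells in place of 4, with ALCAM at an adjusted p of 0.0618. The block also lost MET in Panc89 Holoclone against Paraclone (0.0805), Panc89 against Panc1 Holoclone (0.0574) and Panc89 Paraclone against parental cells (0.0536), and KLF4 in Panc89 Holoclone against parental cells (0.0617).

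Upper quartile scaling moved the median of all genes in Panc1 Holoclone against Paraclone cells from 0.19 to 0.00680 and the share of calls that were higher from 73.3% to 51.3%. That share moved from 62.8% to 52.5% in Panc89 Holoclone against Paraclone, from 25.6% to 47.4% in Panc1 Paraclone against parental and from 65.2% to 51.3% in Panc89 Holoclone against parental cells. Between parental lines, median-of-ratios scaling moved it from 41.6% to 51.8%. No printed member reversed under either scaling. TPM keeps no depth, so the precision of levels under 1 TPM cannot be given.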
